A study of Mus musculus with 5 samples.

Results

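DNase-seq finds open chromatin, since DNase I cuts accessible DNA into short fragments that can be sequenced. The comparison asks which promoters of naïve CD8+ T cells were called open in the presence of Tcf1 and Lef1 but not in their absence. The sites described below were chosen by peak calls in both genotypes and by distance, as the autosomal WT peaks (chromosomes 1 to 19) that shared no base with any dKO peak and whose summit lay within 1000 bp of an annotated transcript start, in either direction. There were 2467 such WT-only promoter sites among 12351 autosomal WT promoter peaks (20%), and the deposited lists held 56641 peaks in all, 31116 from WT and 25525 from dKO cells. The remaining 9884 WT promoter peaks overlapped a dKO peak and are called shared. WT peaks away from promoters lacked a dKO peak more often (37.1%), and dKO promoter peaks lacked a WT peak less often (520 of 10610, 4.90%).

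WT mice were Tcf7+/+Lef1+/+ and dKO mice were Tcf7fl/flLef1fl/fl, and both carried the hCD2-Cre transgene and a Rosa26 GFP reporter. Tcf7 encodes Tcf1. The hCD2 promoter drives Cre mainly in mature peripheral T cells, so that deletion mainly follows thymic development. Cells were sorted from spleen as GFP+TCRbeta+ CD62Lhi CD44lo-med CD8+ cells, from C57BL/6 mice of both sexes that were 6 to 12 weeks old. The series held 3 WT and 2 dKO replicates, which the authors pooled by genotype before calling peaks. Each genotype was therefore represented by 1 list without values per replicate, and no test between genotypes could be made from these lists. The paper itself tested read counts per replicate between genotypes with edgeR. It names fewer WT-specific accessible sites over the whole genome than the WT-only promoter sites counted here. A WT-only site is thus by definition one without a dKO peak call, not a tested loss of openness.

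Tcf1 and Lef1 are DNA-binding proteins with a high mobility group (HMG) box that recognise sequences around ATCAAAG and can act as the nuclear end of Wnt signalling, with β-catenin as a partner. In T cells they guide development in the thymus and keep mature cells in a naïve or memory-like state. Promoters are usually open over the nucleosome-free stretch just upstream of the transcript start, and promoters of housekeeping genes are often rich in CpG.

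The following 61-base stretches show the Tcf/Lef core ATCAAAG, or its reverse complement CTTTGAT, in its context at WT-only promoter sites. The first 6 are from the sites of highest fold enrichment that held the core, and *Cd3d*, which encodes a chain of the T cell receptor complex, was added after its values had been seen. All are on the + strand of mm9, lie outside annotated exons and are printed with the core in capitals.
4930519G04Rik, chr5:115309412-115309472: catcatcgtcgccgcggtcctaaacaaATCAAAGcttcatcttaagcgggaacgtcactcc
Rapgef6, chr11:54435376-54435436: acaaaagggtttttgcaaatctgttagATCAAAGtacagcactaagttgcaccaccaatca
Dlg1, chr16:31683950-31684010: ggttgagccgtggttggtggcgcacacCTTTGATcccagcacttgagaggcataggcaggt
U6, chr15:99633596-99633656: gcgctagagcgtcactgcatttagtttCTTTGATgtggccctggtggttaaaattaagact
Rp9, chr9:22271837-22271897: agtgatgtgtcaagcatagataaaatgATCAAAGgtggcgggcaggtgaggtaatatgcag
Ikbke, chr1:133175413-133175473: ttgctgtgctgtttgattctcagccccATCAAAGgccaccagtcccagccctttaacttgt
Cd3d, chr9:44789787-44789847: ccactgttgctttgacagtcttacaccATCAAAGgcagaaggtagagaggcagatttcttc

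Pieces of 6 further sites are shown because the results below turn on them. They come from the most enriched site at an immune gene (*Pou2af1*), sites at Wnt pathway genes (*Tcf7l1* and *Axin2*), sites at genes that the study lists as lower in dKO cells (*Il6ra* and *Vipr1*), and a site among the 10 of highest fold enrichment (*Specc1*). Each runs around the summit on the + strand of mm9, without annotated exons, and none holds the Tcf/Lef core.
Pou2af1, chr9:51021653-51021794: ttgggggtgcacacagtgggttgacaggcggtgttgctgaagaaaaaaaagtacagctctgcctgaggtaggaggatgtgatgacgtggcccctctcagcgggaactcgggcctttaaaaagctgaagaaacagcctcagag
Tcf7l1, chr6:72739503-72739703: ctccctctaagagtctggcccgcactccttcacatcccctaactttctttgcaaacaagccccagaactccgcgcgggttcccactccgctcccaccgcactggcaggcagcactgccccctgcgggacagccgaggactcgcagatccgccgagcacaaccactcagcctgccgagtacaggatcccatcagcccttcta
Axin2, chr11:108782002-108782113: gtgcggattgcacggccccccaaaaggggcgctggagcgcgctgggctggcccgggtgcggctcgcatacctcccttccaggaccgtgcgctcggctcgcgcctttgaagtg
Il6ra, chr3:89717085-89717248: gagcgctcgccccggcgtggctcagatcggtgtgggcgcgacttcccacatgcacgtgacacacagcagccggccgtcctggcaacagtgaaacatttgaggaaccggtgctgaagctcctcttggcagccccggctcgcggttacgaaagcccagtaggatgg
Vipr1, chr9:121551650-121551833: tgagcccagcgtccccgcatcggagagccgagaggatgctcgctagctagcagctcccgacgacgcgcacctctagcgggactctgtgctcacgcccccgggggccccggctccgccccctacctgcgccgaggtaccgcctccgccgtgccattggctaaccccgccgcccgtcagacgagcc
Specc1, chr11:61770161-61770280: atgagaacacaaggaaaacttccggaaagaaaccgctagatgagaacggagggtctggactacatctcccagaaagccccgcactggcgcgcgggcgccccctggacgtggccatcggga

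The depth behind the lists differed. The file headers gave 83923734 fragments kept for WT and 62242963 for dKO, so that the WT pool was 1.35 times as deep. Among promoters of marker genes, WT peaks were present at 7 of 8 CD8 T cell genes (*Trac* had none, but had 1 dKO peak) and at 3 of 3 naïve T cell genes, at 0 of 3 CD4 T cell genes, 0 of 5 B cell genes, 1 of 3 NK cell genes (*Nkg7*) and 1 of 5 myeloid genes (*Itgam*). In the dKO list the numbers were 7, 3, 0, 0, 1 and 0. Of the 3 CD4 T cell genes, *Cd40lg* is on chromosome X, outside the autosomal definition, so its lack of a peak carries no weight here. The promoter peak of *Itgam*, which encodes the integrin CD11b, was itself WT-only. Its summit was 1 bp from the start, with a pileup of 36 fragments and a fold enrichment of 6.88. The study also lists *Itgam* among genes enriched in effector CD8 T cells. The other myeloid marker genes, *Lyz2*, *Csf1r*, *Cd14* and *Mpo*, had no promoter peak in either list. On the wider list of myeloid, dendritic and progenitor genes, 5 of 38 had a WT promoter peak, and *Fcgr3* and *Cebpb* also had a WT-only site. Whether myeloid cells in the sort contributed to these peaks was not tested. The peak lists hold no RNA, and the deletion of Tcf7 and Lef1 was not checked from them.

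WT-only promoter sites were mostly weak peaks of the WT list. Fold enrichment, which sets the fragments over a summit against those nearby in that pool, ranged from 1.43 to 19.3 with a median of 4.83 for WT-only sites, while shared promoter sites had a median of 10.7. In ranks, the median WT-only site stood at percentile 18.3 of all WT peaks and the median shared site at percentile 71.1. The pileup, which counts the fragments over the summit, had a median of 33 (range 17 to 244) at WT-only and 84 at shared sites. These values belong to the list that defined the sites and are given as a description only.

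Narrow peaks were frequent among the WT-only sites. Their median width was 141 bp, against 281 bp for shared sites, and 31.7% of them (95% Wilson interval 29.9 to 33.5%) were at most 120 bp wide, compared with 4.14% of shared sites (3.76 to 4.55%). The intervals cover counting error over sites, not error between animals. To set sites of like strength side by side, a band of fold enrichment from 4 to 8 was chosen, like the width limit of 120 bp, after the values had been seen, with 1531 WT-only and 2545 shared sites in it. Within that band 29.7% of WT-only and 8.998% of shared sites were at most 120 bp wide. The study's own criteria for an accessible site (fold enrichment from 4, p below 1e-05, q below 0.05) were met by 1780 WT-only sites (72.2%) and by 97.6% of shared sites.

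**Figure D1:**
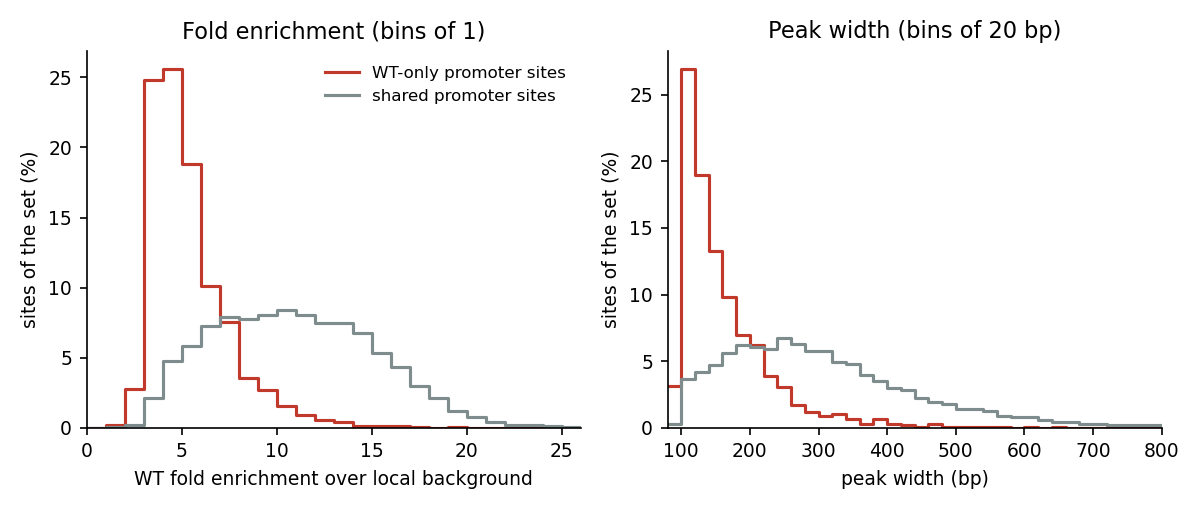
Distribution of WT fold enrichment (left, bins of 1) and peak width in bp (right, bins of 20 bp) for WT-only and shared autosomal promoter sites, as a percent of each set. WT-only sites crowd at low fold enrichment (median 4.83) and small width (median 141 bp), while shared sites spread around 10.7 and 281 bp.

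The share of WT promoter peaks without a dKO counterpart fell steadily with peak strength. When the 12351 peaks were ranked by fold enrichment and divided into deciles, 71.8% (69.3 to 74.3%) of the weakest decile were WT-only, 33.8% of the third, 6.15% of the sixth and 0.405% (0.173 to 0.944%), or 5 of 1235 peaks, of the strongest. Accordingly, 687 WT-only sites had a fold enrichment under 4, 1096 from 4 to 6, 435 from 6 to 8, 213 from 8 to 12 and 36 of at least 12. The last group was 0.911% of the promoter peaks of that strength.

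**Figure D2:**
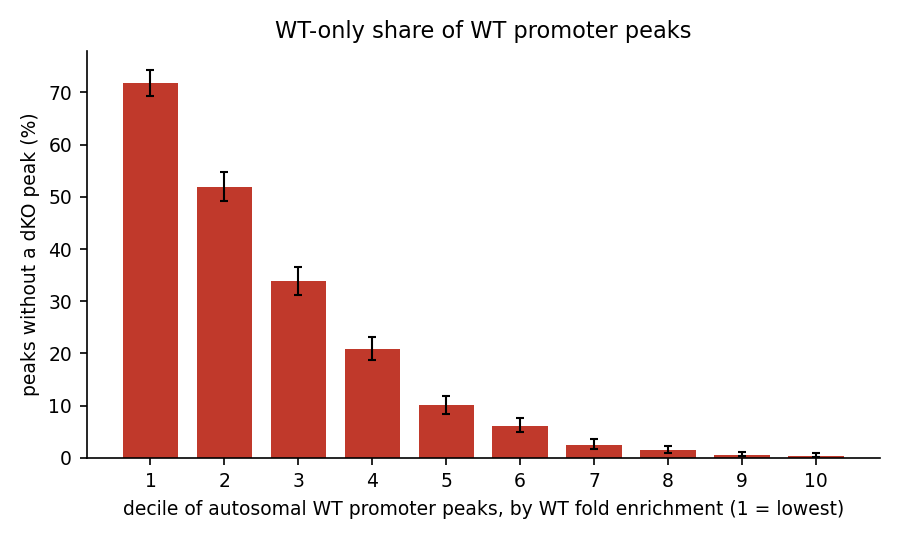
Percent of autosomal WT promoter peaks that overlapped no dKO peak, by decile of WT fold enrichment (1 is the weakest). Bars are shares with 95% Wilson intervals, and the share falls from 71.8% in the weakest decile to 0.405% in the strongest.

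Depth was considered next. Each WT pileup was multiplied by 0.742, the ratio of dKO to WT fragments, to give the pileup that the same site would have had at dKO depth. After this, 1305 WT-only sites (52.9%, 50.9 to 54.9%) stayed above 24 fragments, the lowest decile of dKO promoter peaks, and 108 (4.38%, 3.64 to 5.26%) stayed above 51 fragments, their median. For shared sites the same shares were 95.7% and 64.2%. The lowest pileup of any dKO promoter peak was 13 fragments, which 2450 WT-only sites (99.3%) and 99.99% of shared sites exceeded. WT-only sites had at least 17 fragments before scaling. This last outcome was therefore nearly fixed by the WT peak calls and says nothing about the effect of depth. The lists give no dKO coverage outside dKO peaks. From them alone, lower openness in dKO cells and a peak just under the dKO calling threshold cannot be told apart at a given site. The study's own test between genotypes gives autosomal sites linked to genes that changed in dKO cells. Of those less open in dKO, WT-only sites overlapped 8 of 79 at genes higher in dKO and 18 of 97 at genes lower. Any WT promoter peak overlapped 9 and 22 of them. Of those more open in dKO, WT-only sites overlapped 0 of 131 and 0 of 11.

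At many WT-only sites, the same promoter still had a dKO peak elsewhere. A dKO peak whose summit was within 1000 bp of the same starts accompanied 1048 sites (42.5%, 40.5 to 44.4%), and the promoters of the other 1419 sites had none. Sites whose promoter had no dKO peak had the higher fold enrichment and were closer to the start, but did not have the higher pileup. Their median fold enrichment was 5.21 and their median distance from the start 122 bp, and 62.4% of them were upstream. Sites beside a dKO peak had a median fold enrichment of 4.35 and a median distance of 289.5 bp, and 44.3% of them were upstream. The median pileup was 32 without and 34 with a dKO peak, and after scaling to dKO depth 49.96% (47.4 to 52.6%) and 56.9% (53.9 to 59.8%) stayed above 24 fragments. Counted by gene, 2545 of 11146 genes with a WT promoter peak (22.8%) had at least 1 WT-only promoter site, and 1121 of these genes (44.0%) had no dKO peak at any of their starts.

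The distance to the nearest dKO peak varied widely. It was 4 bp at the least, 2216 bp in the median and above 45271 bp for the farthest 10%. Only 34 sites (1.38%) lay within 100 bp of a dKO peak, 1052 (42.6%) lay within 1000 bp and 806 (32.7%) over 10 kb away. The limits of the definition were populated on both sides. The WT-only sites closest to a dKO peak were at *Aven* (4 bp apart), *Sgms1* (11 bp) and *Celf1* (12 bp), with fold enrichments of 4.05, 4.09 and 3.86. The smallest overlaps of shared sites were at *Tm9sf3* (3 bp), *Cstf2t* (4 bp) and *Hspb6* (7 bp), with 3.74, 3.11 and 4.14. Just inside the 1000 bp limit were the sites of *Rab43* (993 bp, fold enrichment 2.83), *Mthfd2* (992 bp, 4.64) and *Epor* (992 bp, 3.72), and just outside it those of *Acot7* (1001 bp, 5.94), *Ss18* (1002 bp, 4.47) and *9130213A22Rik* (1003 bp, 5.79).

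Seen against the transcript start, WT-only sites were spread more widely than shared ones. Their summits were within 100 bp of a start in 38.3% (36.4 to 40.3%), against 62.6% (61.7 to 63.6%) of shared sites, and over 500 bp away in 24.0% against 9.61%. They were upstream of the start in 54.7% (52.7 to 56.6%), against 73.7% (72.8 to 74.6%). Summits over 250 bp downstream made up 26.8% of WT-only and 9.36% of shared sites. The differences were smaller in the band of fold enrichment from 4 to 8, where 57.2% of WT-only and 64.3% of shared sites were upstream, and 43.2% and 48.8% were within 100 bp. The peak itself covered a start at 33.9% of WT-only and 74.2% of shared sites, and in the band at 38.9% and 52.7%.

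**Figure D3:**
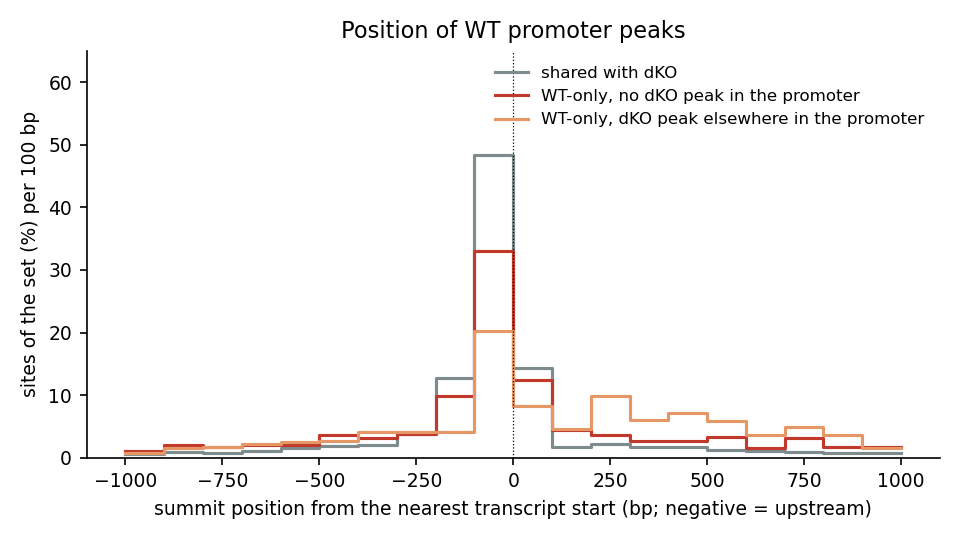
Position of the summit relative to the nearest annotated transcript start (negative is upstream), as the percent of each set in bins of 100 bp, for shared promoter sites and for WT-only sites with and without a dKO peak elsewhere in the promoter. All 3 sets peak in the 100 bp before the start, holding 48.4% of shared sites, 33.0% of WT-only sites without a dKO peak and 20.3% of those with one, which also extend downstream.

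By annotation, 39.7% of WT-only summits were in introns, 29.7% in exons and 30.6% outside transcripts, and the shared summits were in these places in 20.4%, 27.8% and 51.8%. The nearest gene was protein-coding for 2213 WT-only sites (89.7%). It was a lincRNA gene for 76, a processed transcript for 69, a pseudogene for 44 (1.78%, against 0.556% of shared sites), a small nuclear RNA gene for 23, a small nucleolar RNA gene for 12, a variable segment for 12 (an annotation class that holds those of immunoglobulins and of T cell receptors, such as *Trav1*) and a microRNA gene for 10. Starts on both strands within 1000 bp, as in divergent promoters, were found at 13.2% of WT-only and 19.2% of shared sites. The WT-only share of promoter peaks ran from 15.4% on chromosome 18 (44 of 285) to 23.7% on chromosome 11 (276 of 1167). Another WT-only site, at a promoter or not, lay within 50 kb of 63.4% of WT-only and 61.0% of shared promoter sites, whose intervals (61.5 to 65.3% and 60.01 to 61.93%) overlapped.

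The sequence of the sites was not used to choose them. CpG-rich sequence, defined over the 201 bp around the summit by a GC content of at least 50% and an observed-to-expected CpG ratio of at least 0.6, was found at 54.4% (52.4 to 56.4%) of WT-only, 73.4% (72.5 to 74.2%) of shared and 27.7% (24.0 to 31.7%) of dKO-only promoter sites. In the band of fold enrichment from 4 to 8, WT-only and shared sites were nearly level, at 56.96% (54.5 to 59.4%) and 59.0% (57.1 to 60.9%). A GC content under 50% was found at 18.0% of WT-only, 10.1% of shared and 42.1% of dKO-only sites.

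The Tcf/Lef core ATCAAAG, searched on both strands within 100 bp of the summit, was present at 81 WT-only sites, or 3.28% (2.65 to 4.06%). It was present at 157 shared sites (1.59%, 1.36 to 1.85%), at 6 dKO-only sites (1.15%, 0.530 to 2.49%) and in the windows around 1.96% of all 82144 annotated autosomal starts. In the band of fold enrichment from 4 to 8 it was at 51 of 1531 WT-only (3.33%, 2.54 to 4.35%) and 34 of 2545 shared sites (1.34%, 0.958 to 1.86%). Thus the core was more frequent at WT-only than at shared sites with and without the band, although nearly all WT-only sites lacked it. With a fold enrichment of at least 8 required in both lists, the share among WT-only sites was 1.52%, and that among shared sites was not computed. The 84 matches lay at a median of 44 bp from the summit, 51 of them within 50 bp.

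The difference in the Tcf/Lef core was concentrated at sites with a GC content under 50% in the 201 bp around the summit. Where GC content was under 50%, the core was at 46 of 444 WT-only sites (10.4%, 7.86 to 13.5%), 34 of 1003 shared sites (3.39%, 2.44 to 4.70%) and 4 of 219 dKO-only sites (1.83%, 0.713 to 4.60%). From 50 to 60% GC the shares were 2.88% (1.91 to 4.33%) of WT-only and 2.52% (2.01 to 3.14%) of shared sites, and at higher GC they were 1.03% (0.604 to 1.76%) and 0.813% (0.614 to 1.08%), with overlapping intervals in both classes. By distance, the core was at 2.34% of WT-only and 1.30% of shared sites in the first 100 bp from the start, at 2.58% and 1.88% from 100 to 250 bp, and at 4.37% and 2.24% beyond. Of the 81 sites with the core, 52 were in promoters without any dKO peak, and their median fold enrichment was 4.83, as for all WT-only sites.

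Over all strengths, cores of widespread promoter factors were less frequent at WT-only than at shared sites. The Ets core CCGGAAGT was at 2.55% (2.001 to 3.25%) of WT-only and 8.10% (7.58 to 8.66%) of shared sites, the NFY core CCAAT at 19.3% and 33.9%, the Nrf1 core GCATGCGC at 2.11% and 5.57%, the Creb core TGACGT at 5.72% and 12.6%, and the Sp/Klf core GGGCGG at 42.9% and 55.4%. In the band from 4 to 8 these became 2.87% and 4.40% for Ets, 19.3% and 22.7% for NFY, 2.35% and 2.83% for Nrf1, 6.14% and 9.39% for Creb, and 46.1% and 49.6% for Sp/Klf. Among these the intervals were apart in the band only for Creb (5.04 to 7.46% and 8.32 to 10.6%), and those of Ets, NFY, Nrf1 and Sp/Klf overlapped. Around all annotated starts the Ets, NFY, Nrf1, Creb and Sp/Klf cores were found in 3.11%, 24.4%, 1.86%, 5.23% and 30.3%.

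Other lymphoid and architectural motifs differed little between WT-only and shared sites over all strengths. The Runx core TGTGGT was at 10.9% and 10.6%, the AP-1 core TGANTCA at 3.57% and 3.39%, the IRF core GAAANNGAA at 5.67% and 4.77%, the E box CAGCTG at 11.8% and 10.2%, and the CTCF core AGGGGGC at 12.3% and 12.5%. Around all annotated starts these 5 were found in 11.04%, 4.21%, 5.57%, 12.5% and 6.94%. In the band, however, the Runx core was at 10.5% (9.08 to 12.2%) of WT-only and 14.2% (12.9 to 15.6%) of shared sites. The dKO-only sites stood apart, with the Runx core at 25.4% (21.8 to 29.3%) and the AP-1 core at 7.12% (5.21 to 9.65%). They also differed from shared sites in GC content (under 50% at 42.1% and 10.1%) and position (over 500 bp from a start at 34.0% and 9.61%). Runx and AP-1 cores were not compared within classes of GC content or distance. All motifs were searched on both strands, matches of different motifs could overlap, and a match describes the letters, not binding.

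**Figure D4:**
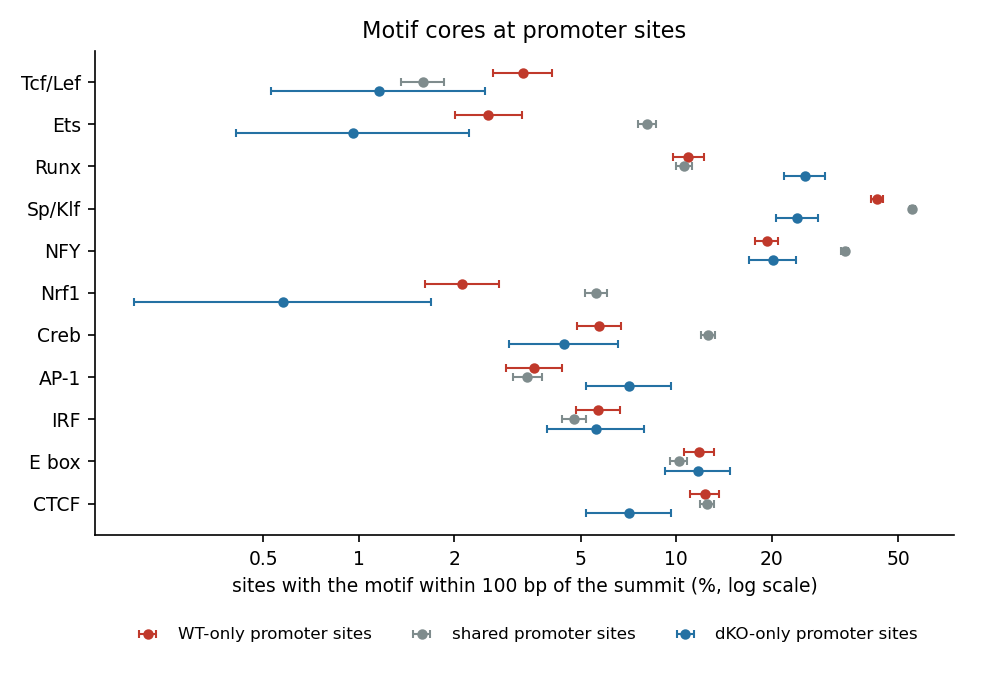
Percent of WT-only, shared and dKO-only promoter sites with each motif core within 100 bp of the summit (log axis), with 95% Wilson intervals. The Tcf/Lef core is more frequent at WT-only (3.28%) than at shared sites (1.59%), the Ets, Sp/Klf, NFY, Nrf1 and Creb cores are less frequent over all strengths, and dKO-only sites lead for Runx (25.4%) and AP-1 (7.12%).

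The strongest WT-only promoter sites were at genes of many kinds. The 10 with the highest fold enrichment lay at *Gm13277* (19.3), *9930104L06Rik* (17.4), *Specc1* (16.7), *snoU13* (16.7), *Kcnip2* (16.1), *Ppp3r1* (15.9), *Pcdhgc5* (15.3), *4932443I19Rik* (15.1), *4930519G04Rik* (15.1) and *Gm17382* (15.0). None of these promoters had another WT peak or any dKO peak. The *Gm13277* site, in an exon 725 bp downstream of the start, was 99 bp wide and had 14 near-identical copies elsewhere in the genome, that is, matches of at least 90% identity across at least 80% of the 201 bp around the summit. Whether they affected the placing of its fragments was not tested, and only reads of mapping quality above 10 had been kept.

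*Specc1*, which encodes a coiled-coil protein of the cytoskeleton, had its WT-only site 20 bp upstream of the start, on chr11:61770154-61770319. The pileup of 89 fragments scaled to 66.0 at dKO depth, above the dKO promoter median of 51, and the nearest dKO peak was 26189 bp away. The site of *Ppp3r1*, which encodes the regulatory subunit of the phosphatase calcineurin, was in an intron 483 bp upstream of the nearest start, with a pileup of 101 and a width of 314 bp. The site of *Kcnip2*, which encodes a potassium channel-interacting protein, was in an exon 578 bp downstream of the start, with a pileup of 102 and a width of 263 bp. Its gene is among those that the study lists as lower in dKO cells.

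In all, 249 WT-only promoter sites had a fold enrichment of at least 8. For 193 of them (77.5%) the promoter had no dKO peak, and 25 were wider than 300 bp, but 77 (30.9%, 25.5 to 36.9%) were at most 120 bp wide. Among shared promoter sites of that strength 1.75% (1.47 to 2.08%) were so narrow, and among the 49 such dKO-only sites 51.0% (37.5 to 64.4%). The Tcf/Lef core was at 3 of the 249, beside 81 of all 2467 WT-only and 157 of all 9884 shared sites. With so few matches, a difference of the strong sites from the others was not tested.

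Of the genes on the immune lists, 73 of 249 with a WT promoter peak (29.3%, 24.0 to 35.3%) had a WT-only promoter site, beside 22.8% (22.1 to 23.6%) of all genes. There were 84 such sites, with a median fold enrichment of 4.77, and at 57 the promoter had no dKO peak. The lists differ from all genes in peak strength, the strongest WT promoter peak having a median fold enrichment of 8.10 for immune genes and 11.2 for all genes. Among genes whose strongest WT promoter peak was between 4 and 8, the order turned, with 36.8% (28.2 to 46.3%) of immune genes and 46.8% (44.9 to 48.8%) of all genes, with intervals that overlapped.

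The most prominent site at an immune gene belonged to *Pou2af1*, which encodes the coactivator of Oct proteins known from B cells. At 726 bp it was the widest of all WT-only promoter sites. Its summit was 42 bp upstream of the start, its pileup was 114 (84.5 at dKO depth), its fold enrichment was 13.0, and no dKO peak lay within 51451 bp. *H2-Eb1* was the only other B-lineage gene with a WT-only site, of 7 with a WT promoter peak.

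Wnt pathway genes with a WT-only site numbered 10 of 27, namely *Tcf7l1*, *Axin2*, *Fzd5*, *Apc*, *Lrp6*, *Fzd9*, *Wls*, *Dvl3*, *Tle1* and *Myc*. The share of 37.0% (21.5 to 55.8%) had an interval that includes the 22.8% of all genes, and in the band from 4 to 8 it rested on 3 of 5 genes. The site of *Tcf7l1*, a further member of the Tcf/Lef family, was 355 bp upstream of the start with a fold enrichment of 10.1 and a pileup of 60 (44.5 at dKO depth), and the nearest dKO peak was 91677 bp away. At *Axin2*, a feedback inhibitor of Wnt signalling that Tcf/Lef proteins are known to induce, the WT-only site was 12 bp from the start with a fold enrichment of 7.92, and a shared WT peak of 9.38 was called 385 bp from its summit. The receptor gene *Fzd5* had 3 WT-only sites (7.23, 3.56 and 3.37) and no dKO promoter peak. *Myc* also had 3, all weak, with fold enrichments of 3.39, 2.96 and 2.63 and a nearest dKO peak 1381 bp away. *Myc* and the weaker genes of this list were named after their values had been seen.

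Genes of T cell receptor signalling had a WT-only site in 9 of 38 cases (*Dgkz*, *Cd6*, *Ptprc*, *Sla*, *Cd3d*, *Lck*, *Trat1*, *Dgka* and *Cd247*). At 23.7% (13.0 to 39.2%) this was near the 22.8% of all genes, and in the band it was 4 of 14 (28.6%, 11.7 to 54.6%), beside 46.8% of all genes. *Dgkz*, whose lipid kinase dampens receptor signals, had sites at separate starts with fold enrichments of 7.70 and 6.29, and neither promoter had a dKO peak. The *Cd3d* site was 28 bp upstream of the start, with a pileup of 54 but a fold enrichment of 4.49, and the nearest dKO peak was 1150 bp away. It held the Tcf/Lef core shown above, as did the site of *Trat1* (fold enrichment 3.56), which encodes an adaptor of the receptor complex. At *Lck*, the kinase that starts receptor signalling, the WT-only site was weak (4.06) and 177 bp upstream of an inner start, and 2 dKO peaks lay at other starts of the gene. *Cd3d*, *Trat1* and *Lck* were singled out after their values had been seen.

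The T-lineage transcription factor list had WT-only sites at 10 of 28 genes, which were *Tox*, *Notch1*, *Gata3*, *Nfatc1*, *Ets2*, *Ikzf3*, *Bach2*, *Id3*, *Foxp1* and *Id2*. That is 35.7% (20.7 to 54.2%), with an interval that includes the 22.8% of all genes. In the band it was 6 of 14 genes (42.9%, beside 46.8% of all genes). None reached a fold enrichment of 6, the highest being 5.95 at *Tox*, 5.76 at *Notch1* and 5.16 at a *Gata3* site that was nearest to the start of *9230102O04Rik*. Naïve T cell homing and survival genes had such sites at 8 of 22, led by *Il6ra*, the receptor for interleukin 6, with 6.99 at 64 bp upstream and no dKO peak within 25310 bp. Inhibitory receptor and exhaustion genes had them at 4 of 12. Among these *Btla*, an inhibitory receptor, stood at 10.5, but a dKO peak (5.60 in its own list) was 744 bp from the summit, at the position of a shared WT peak of 5.63. Cytotoxic effector and memory genes had them at 3 of 19, and helper and regulatory T cell genes at 3 of 6, with *Gpr83* highest (6.59). In the band these lists had 4 of 11 genes (naïve homing and survival), 2 of 4 (inhibitory), 3 of 14 (cytotoxic) and 3 of 4 (helper and regulatory) with a WT-only site, and the interval of each, as over all strengths, overlapped that of all genes.

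Cytokine signalling genes had a WT-only site at 12 of 35 (34.3%, 20.8 to 50.8%) and interferon response genes at 9 of 41 (21.95%, 12.003 to 36.7%), with intervals that include the 22.8% of all genes. In the band the shares were 6 of 15 and 6 of 18 genes, both below the 46.8% of all genes, which lay within their intervals. The cytokine signalling genes included *Il10ra* (8.33), *Tnfrsf1a* (7.05) and *Smad4* (6.46), which encode an interleukin 10 receptor chain, a TNF receptor and the common Smad mediator of TGF-β signals. Among the interferon response genes were *Igtp* (10.6), an interferon-induced GTPase, *Ddx58* (7.94), which encodes the RNA sensor RIG-I, *Irf7* (7.42) and *Slfn1* (6.81). The promoters of *Ddx58* and *Irf7* had a dKO peak elsewhere, while those of *Igtp* and *Slfn1* had none. Myeloid, dendritic and progenitor genes had a WT-only site at 3 of 5, namely *Fcgr3* (7.09), *Itgam* (6.88) and *Cebpb*. Natural killer receptor genes (0 of 4) and chemokine receptor and ligand genes (0 of 6) had none. The *Igtp* site had 1 near-identical copy elsewhere in the genome and the *Fcgr3* site 2.

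The study also lists genes whose RNA was lower or higher in dKO cells, from RNA-seq of the same genotypes. Of the genes listed as lower, 82 of 181 with a WT promoter peak (45.3%, 38.2 to 52.6%) had a WT-only promoter site, and of those listed as higher, 49 of 155 (31.6%, 24.8 to 39.3%), beside 22.8% of all genes. With the strongest WT promoter peak between 4 and 8, the shares were 46 of 72 (63.9%, 52.4 to 74.0%) for genes lower in dKO, 21 of 73 (28.8%, 19.7 to 40.01%) for genes higher in dKO and 46.8% for all genes. In this band the genes lower in dKO thus lay above all genes, and the genes higher in dKO below them, with intervals that did not overlap.

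The 99 WT-only sites at genes lower in dKO had a median fold enrichment of 5.04, and 82 of them (82.8%) were in promoters without a dKO peak. At the 55 sites of genes higher in dKO the median was 4.30, and 34 (61.8%) were in such promoters, beside 57.5% of all WT-only sites. The Tcf/Lef core was at 4 and 1 of these sites. After *Kcnip2* and *Pou2af1*, the highest sites at genes lower in dKO were at *Dscc1* (12.3), a cohesion factor of replication, *Whrn* (10.02), a scaffold protein, and *Vipr1* (9.94), the receptor for vasoactive intestinal peptide. *Dscc1* alone of these kept a dKO peak in its promoter, 415 bp from the WT-only summit. The highest at genes higher in dKO were at *Gsg2* (11.7), which encodes the histone kinase haspin, *Pear1* (10.2), *Trip10* (9.69, nearest to the start of *Gpr108*), *Lca5* (9.39) and *Il10ra* (8.33). At *Trip10* 2 dKO peaks remained in the promoter, and the other 4 promoters had none.

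**Figure D5:**
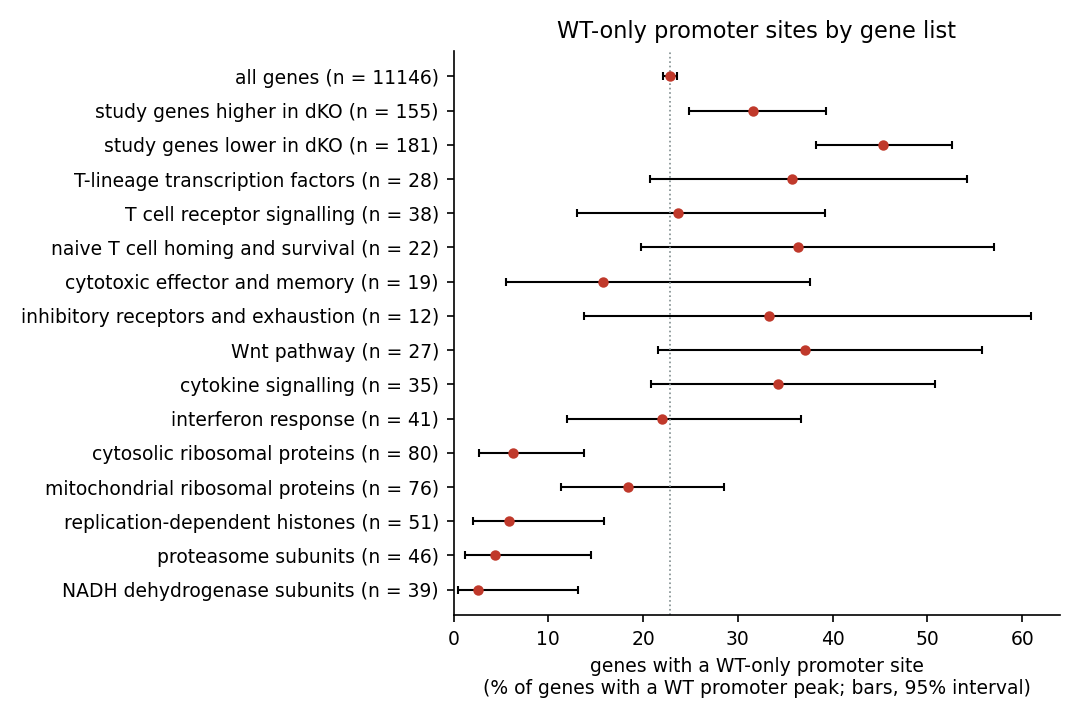
Percent of genes with a WT promoter peak that had a WT-only promoter site, by gene list, with 95% Wilson intervals and the share of all genes (22.8%) as a dotted line. Among the lists plotted, genes that the study lists as lower in dKO lie highest (45.3%), and cytosolic ribosomal protein, histone, proteasome and NADH dehydrogenase genes lie lowest.

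Housekeeping families had WT-only promoter sites less often than the 22.8% of all genes. They were at 5 of 80 cytosolic ribosomal protein genes (6.25%, 2.70 to 13.8%; the symbol pattern also takes a kinase gene, *Rps6kc1*), 3 of 51 replication-dependent histone genes, 2 of 46 proteasome genes and 1 of 39 NADH dehydrogenase genes. The strongest WT promoter peaks of these genes had median fold enrichments of 14.1, 9.70, 12.6 and 14.2, beside 11.2 for all genes. With that peak between 4 and 8, a WT-only site was at 1 of 8 cytosolic ribosomal protein and 1 of 5 proteasome genes. It was at 0 of 16 histone genes (0 to 19.4%), beside 46.8% (44.9 to 48.8%) of all genes, and the band held 0 NADH dehydrogenase genes. RNA helicases (6 of 50), DNA repair genes (5 of 43), small nucleolar RNA genes (3 of 20) and Rab GTPases (7 of 46) also lay below 22.8%. So did kinesins (4 of 23), mitochondrial ribosomal proteins (14 of 76), Zfp zinc finger genes (48 of 243) and cyclins and their kinases (11 of 53). Tripartite motif genes (9 of 34), solute carriers (41 of 147), microRNA genes (11 of 37) and tubulins (5 of 16) lay above it. The interval of each of these lists included 22.8%, and in the band it included the 46.8% of all genes. Hox genes (4 of 6) and olfactory receptor genes (3 of 4) had few WT promoter peaks, most of them WT-only.

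Across the study's lists of lineage-enriched genes, the share with a WT-only promoter site was 62.5% (38.6 to 81.5%) for naïve CD4 T cells (10 of 16 genes), 45.0% for regulatory T cells, 42.9% for conventional dendritic cells, 36.1% for monocytes, 35.4% for plasmacytoid dendritic cells and 34.6% (26.2 to 44.0%) for genes of all T cells. It was 29.2% for granulocytes, 28.9% for γδ T cells, 28.1% for B cells, 23.1% for NK cells and 18.6% (13.8 to 24.6%) for effector CD8 T cells. Of the genes enriched in naïve CD8 T cells, 6 of 24 had such a site, and the share over all genes was 22.8%. The order of several lists against all genes turned in the band, where the share of all genes was 46.8%. There it was 43.5% (30.2 to 57.8%) for genes of all T cells, 41.8% for effector CD8 T cells, 41.5% for γδ T cells, 31.8% for NK cells and 23.1% for naïve CD8 T cells, and between 48.9% (granulocytes) and 58.3% (naïve CD4 T cells) for the other lists. The intervals of all 12 lists overlapped that of all genes in the band.

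Some genes had several WT-only promoter sites. There were 237 genes with at least 2 and 30 with at least 3. The small RNA name U6 led with 11, but these are separate loci that share a name. *Lmna*, *Mcm7*, *Pik3cd* and *Inpp4b*, which encode lamin A, a helicase subunit, the lymphoid PI3 kinase and a phosphatase of its lipid products, had 3 each, between 3.75 (*Pik3cd*) and 6.49 (*Inpp4b*). *Sfi1* on chromosome 11 was unlike all of these. Its 5 WT-only sites had pileups from 176 to 244, up to the highest of all, but fold enrichments from 1.43 to 2.19, and dKO peaks lay in each of these promoters. These genes were named after their values had been seen.

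The sites with the Tcf/Lef core that had the highest fold enrichment, whose sequences are given above, were all in introns, 4 of them upstream and 2 downstream of the nearest start. After *4930519G04Rik* (15.1), *Rapgef6* reached 10.8 at 414 bp upstream of a start, with a GC content of 36.3% and no dKO peak within 53650 bp. Its product activates the GTPase Rap, which controls adhesion. *Dlg1*, a scaffold protein of cell junctions and the immune synapse, followed with 8.92, and its core was 7 bp from the summit. The sites of a *U6* gene on chromosome 15 (7.99), *Rp9* (7.83) and *Ikbke* (7.61), the last encoding an inflammatory kinase, completed the 6. *Rp9* and *Ikbke* had a dKO peak elsewhere in the promoter, overlapping a further WT peak there, and the other 4 had none.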

How the data were processed

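Naïve CD8+ T cells of 3 WT and 2 dKO replicates were measured by DNase-seq. Per the methods and labels, the authors checked reads with FastQC, aligned them to mm9 with Bowtie2 2.2.5, kept reads of mapping quality above 10, pooled the replicates of each genotype and called peaks with MACS2 2.1.1 in paired-end mode, without control, at p under 1e-05. The deposited pileup is a signal, the fragments over the summit, not scaled to depth. As deposited, fold enrichment is a ratio of pileup to the background nearby in the pool. The deposited -log10 p comes from the authors' peak caller and -log10 q is its adjusted form, although the headers say that q was not calculated. The headers give 2 input files per list, exactly 2 times as many fragments read as kept and at most 1 duplicate kept; how the replicates enter those files was not given in the sources used here.

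Peaks were shared if they overlapped by at least 1 bp. Starts were those of 82144 autosomal positions in the GENCODE annotation of mm9, and percentiles were ranks of fold enrichment within all peaks of a list. Fold enrichments of different lists were not compared. Sequence was read from mm9 within 100 bp of summits. Wilson intervals (95%) were given for shares, for counting error alone. With 1 pooled list per genotype no p-value was computed. The members and gene lists were chosen with earlier results of these data known. Named sites were the 10 strongest, up to 20 at genes of the immune lists, 6 with ATCAAAG, 5 each at genes listed by the study as lower or higher in dKO, and 3 on each side of the 1000 bp limit; further names are marked as chosen after their values were seen, and some sites that the rule takes are not reported here. Genes of the study's lists were matched by symbol, 85.0 to 94.9% of each list. Near-identical copies were matches elsewhere, with 90% identity or more across 80% or more of the 201 bp around a summit. Overlap, nearest start and motif steps were tested on simulated data and gave the planted answer for 2000 of 2000 sites each. Python 3.11.15 with numpy 2.4.6, pandas 2.3.3, scipy 1.17.1, pysam 0.24.0 and matplotlib 3.10.9, samtools 1.23.1 and blastn 2.17.0 were used. Alternatives changed the peak threshold, list length, overlap, promoter window, annotation, motif window, neighbourhood and ranking.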

Additional observations from a re-analysis of the deposited data

Results flagged for a closer look

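Chromosome X was outside the autosomal definition. In its data, which no comparison above uses, 72 of 342 WT promoter peaks overlapped no dKO peak, and on the mitochondrial sequence 0 of 14 did. Mice of both sexes were used and the sex of the animals in each pool was not used here, so a difference in the makeup of the pools and a difference between genotypes cannot be told apart on chromosome X.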

How the results depend on the processing

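No paired analysis was possible because each genotype has 1 pooled peak list without values per replicate, and for the same reason no replicate could be left out. Of 87 recomputed values, 40 moved by less than their counting interval (counts by less than 1.5 times) and 47 moved further. Requiring at least 50% overlap of the shorter peak, or counting a gap of up to 100 bp as shared, gave 2515 and 2434 sites and moved none of the results. Under the study's criteria in both lists the number was 1873, the share with a dKO peak elsewhere in the promoter 36.4%, the share above the depth-scaled pileup 55.3%, upstream 58.5% and near another WT-only site 60.3%. With a fold enrichment of at least 8 in both lists there were 1183 sites, at a median percentile of 21.2, with 11.3% beside a dKO peak, 69.7% above the scaled pileup, ATCAAAG at 1.52%, 69.2% CpG-rich, 69.4% upstream, 38.2% near another WT-only site and 35 at immune list genes. With q under 1e-10 in both lists 32.0% were beside a dKO peak, 49.1% above the scaled pileup, 2.58% held ATCAAAG, 58.5% were CpG-rich and 60.1% upstream. With the 20000 peaks of highest -log10 p in each list there were 958 sites, with 25.5%, 79.9%, 2.30%, 60.2% and 66.2% for the same measures, 42.6% near another WT-only site and 29 at immune list genes.

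A promoter limit of 500 bp gave 29.7% beside a dKO peak, 49.8% above the scaled pileup, 2.56% with ATCAAAG, 62.4% CpG-rich and 60.3% upstream. A limit of 250 bp gave 1372 sites at a median percentile of 21.2, with 8.89%, 44.6%, 2.41%, 67.4% and 66.6% for these measures and 49 sites at immune list genes. Starts of protein-coding transcripts alone gave 46.2% beside a dKO peak, 49.2% above the scaled pileup, 2.53% with ATCAAAG and 60.6% CpG-rich. ATCAAAG within 50 bp was at 1.91%, another WT-only site within 10 kb at 28.2% and within 100 kb at 80.3%, and ranks by pileup gave a median percentile of 20.7. Stricter thresholds also remove weak dKO peaks, so sites that were shared become WT-only. The share with ATCAAAG under the strictest fold threshold was below the 1.59% of shared sites in the lists as deposited. These are unlike sets, since the share among shared sites under that threshold was not computed. Pooling and the greater WT depth limit every result: the lists show no spread between animals, and no coverage where no peak was called.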
